A study of Mus musculus with 10 samples.

Results

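MicroRNAs are made and used by a small set of proteins, and the genes for 10 of them were followed in gastrocnemius (GAS) of obese mice that received an antisense oligonucleotide (ASO) against miR-22. The 10 genes were listed by symbol, and they are the 4 Argonautes Ago1, Ago2, Ago3 and Ago4, the Microprocessor genes Drosha and Dgcr8, the gene of the hairpin-cutting enzyme Dicer1, and the 3 GW182 scaffold genes Tnrc6a, Tnrc6b and Tnrc6c. All 10 were among the 21098 genes of the deposited count table, 9 of them had counts, and 8 had enough counts to be tested (below, the 10 genes are called the members). Wild-type (WT) male C57BL/6J mice with diet-induced obesity (DIO) were given a high-fat diet from an age of 9 weeks, and after 9 weeks of the diet they received weekly subcutaneous injections for 14 weeks. The 5 ASO mice received the anti-miR-22 ASO (RES-010) at 10 mg/kg and the 5 control mice (CTRL) received saline. The series gives an age of 30 weeks, whereas the times of diet and treatment in the labels add up to 32 weeks. The ASO is an unconjugated oligonucleotide with locked nucleic acid bases and a phosphorothioate backbone. Because the CTRL group received no oligonucleotide, an effect of blocking miR-22 and an effect of any such oligonucleotide cannot be told apart here. The labels do not state that each library is a separate animal, so p-values measure the spread between the libraries.

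In the nucleus, the enzyme Drosha and its RNA-binding partner DGCR8 cut a hairpin out of a primary transcript. After export to the cytoplasm, Dicer cuts the hairpin to a short duplex, and an Argonaute protein keeps one strand as its guide. A bound Argonaute finds its targets by the seed of the guide, usually in the 3′UTR, and a GW182 protein (encoded by the Tnrc6 genes) ties it to the complexes that shorten the poly(A) tail and remove the cap. The ASO is directed against miR-22, a microRNA known to be abundant in heart and skeletal muscle. Its mature sequence is shown because it defines the target matches described with the members, and the capitals mark the seed, bases 2 to 8 (RefSeq).

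miR-22-3p: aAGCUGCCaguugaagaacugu

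The values are counts of read pairs on the last 500 bp or fewer of annotated transcripts, here called segments. Library totals ranged from 1606909 to 2116720 counts in CTRL and from 2239186 to 2632560 with the ASO, so every ASO library was deeper than every CTRL library. Levels are given in CPM, counts per library size scaled by TMM, and genes were tested by the quasi-likelihood method of edgeR, with p-values adjusted after Benjamini and Hochberg and a threshold of 0.05. The share of counts on segments at least 1000 bp upstream of the most distal one of the same gene was between 22.8% and 29.7% in CTRL and between 14.9% and 18.2% with the ASO. The share on mostly intronic segments was between 4.38% and 6.31% in CTRL and between 2.62% and 3.18% with the ASO. Mostly intronic means that more than 50% of a segment lies outside every annotated exon of its gene. The summed level of the muscle fiber markers was also without overlap, from 40604 to 79769 CPM in CTRL and from 84649 to 130021 CPM with the ASO, with 2 of 4 tested markers higher and Mb and Tnnt3 at 0 counts. The satellite cell markers summed to 37.1 to 63.0 CPM in CTRL and 87.9 to 110 CPM with the ASO, with 1 of 2 tested markers higher and Calcr at 0 counts. The higher one was Cdh15, which went from 38.3 ± 8.28 to 89.6 ± 7.28 CPM (SD, n = 5 a group). Pax7, the other, was at 7.60 ± 2.45 and 8.61 ± 0.70 CPM (log2 fold change 0.17, edgeR adjusted p = 0.65). The sums of the macrophage, endothelial, Schwann cell, adipocyte, blood and fibroblast markers overlapped between the groups, with Adgre1, Alas2 and Dcn at 0 counts. The macrophage sum was between 58.3 and 354 CPM in CTRL and between 18.9 and 125 CPM with the ASO, and 1 of 3 tested macrophage markers was lower (Mrc1, log2 fold change −1.51, SE 0.49, edgeR adjusted p = 0.036). No tested marker of the other 5 types was past the threshold. Depth was made equal in another fit, and further fits used some segments alone, both given below. Beyond these fits, the part of the place of the counts and of these markers in the results was not tested. In whole muscle, fewer cells of a type and less RNA per cell cannot be told apart.

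Of the 8 tested genes, 4 rose with the ASO (Dicer1, Dgcr8, Ago2 and Tnrc6a) and none fell. Over all 7813 genes tested, 11.8% rose, 17.4% fell and 29.2% were called in either direction. The balance over all genes depended on the scaling, with 920 higher and 1363 lower under TMM, 528 and 1819 under total counts, and 1262 and 1206 under upper quartile scaling. In those 3 fits the 4 genes that rose were 4, 2 and 4 of the 8. The median log2 fold change was 0.49 over the 8 genes and −0.03 over all genes tested. In Dicer1 and Dgcr8 every ASO library was above every CTRL library, which held for 7.97% of all genes. The reverse, every ASO library below every CTRL library, held for 13.4% of all genes and for none of the 8. With all libraries thinned to the lowest total, the same 4 genes rose and none fell. Their log2 fold changes were then 0.86 (Dicer1), 0.85 (Dgcr8), 0.57 (Ago2) and 0.44 (Tnrc6a), with edgeR adjusted p from 0.0034 to 0.039.

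**Figure D1:**
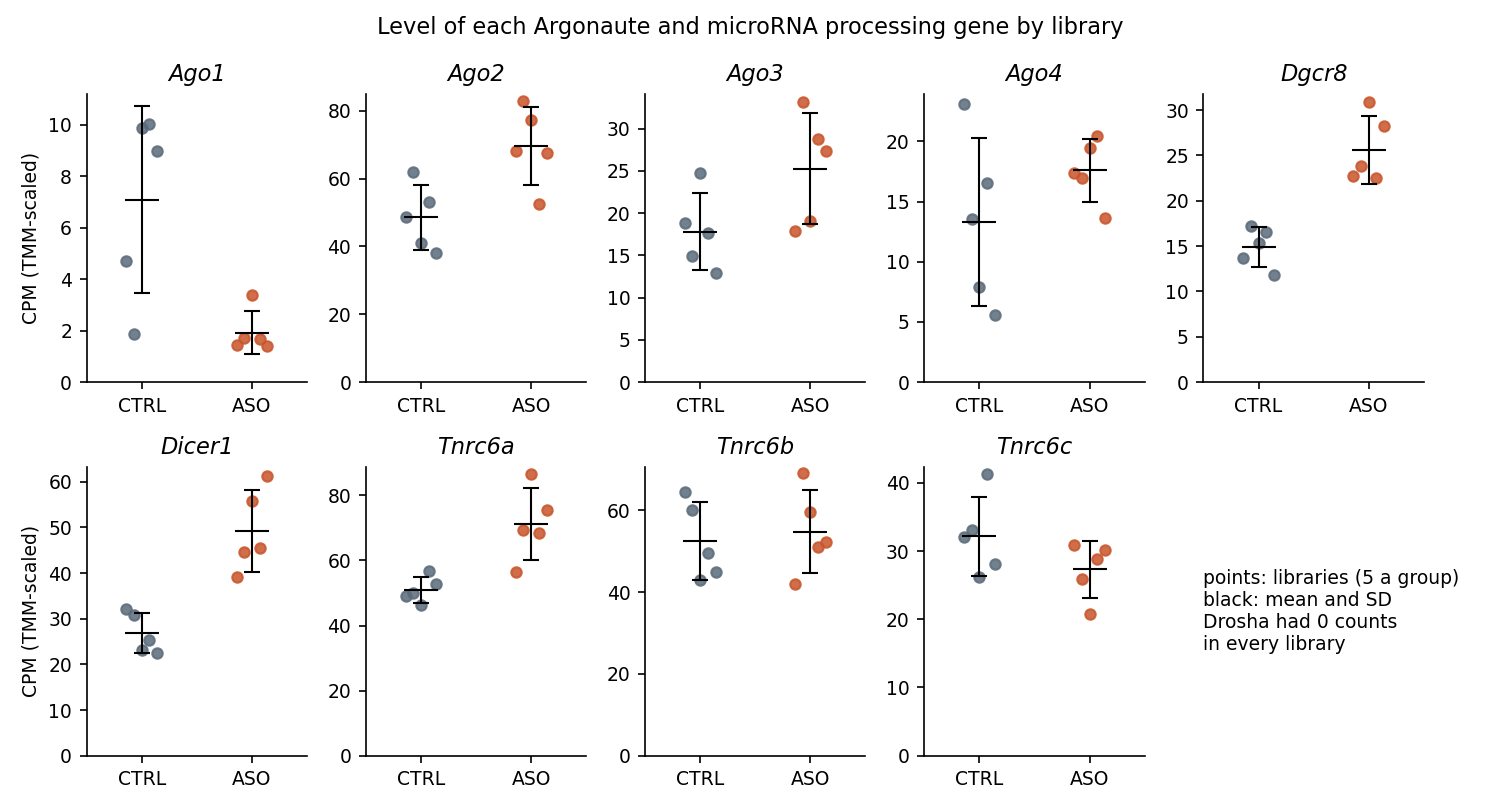
Level of each gene in CPM (vertical axes from 0, on a TMM-scaled library size) in the 5 CTRL and 5 ASO libraries. Points are libraries and black marks are the mean and SD. The groups are apart in Dgcr8 and Dicer1 and overlap in the other 7 genes with counts.

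Among the Argonautes, Ago2 rose 1.43-fold, whereas Ago3 and Ago4 were not past the threshold and Ago1 had too few counts for the test. Ago2, the Argonaute best known for cutting fully paired targets, was at 48.6, 62.0, 41.0, 53.1 and 38.2 CPM in CTRL replicates 1 to 5 and at 68.1, 82.8, 77.4, 52.6 and 67.4 CPM in ASO replicates 1 to 5. ASO replicate 4 lay within the range of the CTRL libraries and the other 4 ASO libraries lay above it. The means were 48.6 ± 9.57 CPM in CTRL and 69.7 ± 11.5 CPM under the ASO (SD, n = 5 a group), and the change on the log2 scale was 0.52 (SE 0.17, edgeR adjusted p = 0.037). A two-sided exact permutation test of the difference in log2(CPM + 1) over the 252 labellings gave p = 0.024 for Ago2, where 0.0079 is the smallest p this design can give. The call of Ago2 was held without CTRL replicate 2 or ASO replicate 4, and was lost when any other library was left out (CTRL replicates 1, 3, 4 and 5 and ASO replicates 1, 2, 3 and 5), with log2 fold changes from 0.44 to 0.63 over the 10 fits. It was also lost under scaling by total counts, where the log2 fold change was 0.34 (edgeR adjusted p = 0.13). No filter on low counts (0.55, adjusted p = 0.052) lost it too. So did the segment of most counts alone, with its own scaling (0.40, adjusted p = 0.092, both from edgeR). The most distal segment alone and the replicate number as a block, given below, lost it as well. Ago2 was past the threshold in 10 of 23 fits.

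Ago3 was at 18.9, 14.9, 24.7, 17.7 and 12.9 CPM in CTRL replicates 1 to 5 and at 17.9, 33.1, 19.0, 28.8 and 27.4 CPM in ASO replicates 1 to 5. ASO replicates 1 and 3 lay among the CTRL libraries, and the log2 fold change was 0.50 (SE 0.23, edgeR adjusted p = 0.13). Ago4 was at 23.1, 13.5, 7.91, 16.5 and 5.62 CPM in CTRL replicates 1 to 5 and at 17.4, 17.0, 19.5, 20.5 and 13.7 CPM in ASO replicates 1 to 5. The CTRL libraries of Ago4 spread widely, with a coefficient of variation of 52.3% against 14.9% with the ASO, and the highest library of all was CTRL replicate 1. Its log2 fold change was 0.39 (SE 0.32, edgeR adjusted p = 0.38), with between 10 and 49 counts in a CTRL library. The value of Ago4 depended on single CTRL libraries, with 0.69 without CTRL replicate 1, 0.25 without CTRL replicate 3 and 0.20 without CTRL replicate 5, none of them past the threshold.

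Ago1 was the one Argonaute whose levels were lower with the ASO. It was at 4.72, 1.87, 9.88, 10.0 and 8.99 CPM in CTRL replicates 1 to 5 and at 1.45, 1.70, 3.38, 1.67 and 1.41 CPM in ASO replicates 1 to 5. These values rest on 89 counts in all, with 4 to 20 counts in a CTRL library and 3 to 8 in an ASO library. CTRL replicate 2 lay among the ASO libraries and the other 4 CTRL libraries lay above them, and the exact permutation test gave p = 0.016. Ago1 had too few counts for the reported fit. In edgeR with every gene kept, it had a log2 fold change of −1.79 (SE 0.48, edgeR adjusted p = 0.019), and with DESeq2 it was −1.82 (SE 0.57, DESeq2 adjusted p = 0.0093). Where the counts lie limits what they say of the gene. The end of the main Ago1 transcripts is held by 3 segments with identical coordinates (chr4:126328805-126329304, minus strand, GRCm39), to which no read pair was assigned. All 89 counts are on the segment of a transcript annotated for nonsense-mediated decay (chr4:126332114-126332613), 3309 bp upstream. The longest annotated 3′UTR of Ago1, that of a main transcript, has 4494 bp, which is longer than this distance. Reads of the main transcripts may therefore fall on this segment too, and the sources cannot be told apart here. Segments at least 1000 bp upstream were lower for 54.7% and higher for 4.66% of the 3737 tested over all genes, and their median log2 fold change was −0.89.

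Dgcr8 and Dicer1, which act in the first and the second cut, had the largest increases among the 8 tested genes. Dgcr8 was at 13.7, 17.3, 15.3, 16.5 and 11.8 CPM in CTRL replicates 1 to 5 and at 22.7, 23.8, 30.9, 22.5 and 28.3 CPM in ASO replicates 1 to 5. The lowest ASO library was above the highest CTRL library. The mean rose from 14.9 ± 2.21 to 25.6 ± 3.75 CPM (SD, n = 5 a group), with a log2 fold change of 0.78 (SE 0.18, edgeR adjusted p = 0.0070). The exact permutation test gave the smallest possible p of 0.0079. Its counted segment (chr16:18071812-18072311, minus strand, GRCm39) ends 2237 bp short of the end of the gene in GENCODE M39 and overlaps exons of Trmt2a on the other strand over all 500 bp. The libraries were made with a stranded kit, and 36 of 38 segments that are covered entirely by segments on the other strand, and by none on their own, had counts. A part of Trmt2a reads in the Dgcr8 value was not tested.

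Dicer1 was at 32.1, 30.8, 23.2, 25.4 and 22.5 CPM in CTRL replicates 1 to 5 and at 39.1, 44.6, 55.8, 45.5 and 61.3 CPM in ASO replicates 1 to 5. All ASO libraries were above all CTRL libraries. The mean rose from 26.8 ± 4.39 to 49.3 ± 9.04 CPM (SD, n = 5 each), which is 1.83-fold and a log2 fold change of 0.88 (SE 0.17, edgeR adjusted p = 0.0028), and the exact permutation test gave p = 0.0079. Its only counted segment is the last 500 bp of the gene (chr12:104654001-104654500, minus strand, GRCm39), all of it exonic. Dicer1 was past the threshold in each of the 23 fits that included it, with log2 fold changes from 0.62 to 0.97.

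Drosha, the catalytic partner of DGCR8, had 0 counts in all 10 libraries. Its 2 segments (chr15:12935209-12935377 and chr15:12935209-12935376, plus strand, GRCm39) share all but 1 base, and reads that fall on both were not assigned. A 0 is therefore a limit of the counting and does not show a level of Drosha.

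Of the 3 GW182 genes, Tnrc6a rose, whereas Tnrc6b and Tnrc6c were not past the threshold. Tnrc6a was at 49.0, 49.9, 46.4, 56.6 and 52.8 CPM in CTRL replicates 1 to 5 and at 56.5, 69.3, 86.7, 68.5 and 75.5 CPM in ASO replicates 1 to 5. ASO replicate 1 lay just under the highest CTRL library and the other 4 ASO libraries lay above all CTRL libraries. The mean rose from 51.0 ± 3.90 to 71.3 ± 11.0 CPM (SD, n = 5 a group), with a log2 fold change of 0.48 (SE 0.14, edgeR adjusted p = 0.019; exact permutation p = 0.016). The call held whichever library was left out, and was lost under scaling by total counts, where the log2 fold change was 0.30 (edgeR adjusted p = 0.11). It was also lost on the segment of most counts alone, with its own scaling (0.47, edgeR adjusted p = 0.051). The most distal segment alone (0.49) and the replicate number as a block (0.47) lost it too. Tnrc6a was past the threshold in 20 of 24 fits.

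Tnrc6b was at 64.6, 60.2, 43.0, 49.6 and 44.9 CPM in CTRL replicates 1 to 5 and at 42.0, 69.3, 59.6, 50.9 and 52.3 CPM in ASO replicates 1 to 5. The groups overlapped over most of their range, with a log2 fold change of 0.06 (SE 0.17, edgeR adjusted p = 0.80). Tnrc6c was at 32.1, 33.1, 26.2, 41.3 and 28.1 CPM in CTRL replicates 1 to 5 and at 30.9, 25.9, 20.7, 28.8 and 30.2 CPM in ASO replicates 1 to 5. The log2 fold change of Tnrc6c was −0.23 (SE 0.17, edgeR adjusted p = 0.33), and 2 ASO libraries lay under the lowest CTRL library. Of the 619 counts of Tnrc6c, 614 are on a segment 1175 bp upstream, because the segments at its end share all but a few bases.

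Levels can be set side by side between genes only per length, and the scale used was CPM per kilobase of bases covered by 1 segment alone. These bases are summed over all segments of a gene (1500 in Tnrc6a, 1000 in Tnrc6b and 504 in Tnrc6c), so the order depends on how many segments are annotated. On single 500 bp segments in CTRL, the most distal one of Tnrc6b was at 42.8 ± 14.7 CPM and the main one of Tnrc6c at 32.0 ± 5.87 CPM (SD, n = 5). In CTRL, Ago2 was highest with 97.2 ± 19.1 CPM per kb, followed by Tnrc6c (63.8 ± 11.6), Dicer1 (53.6 ± 8.78), Tnrc6b (52.5 ± 9.51), Tnrc6a (34.0 ± 2.6), Dgcr8 (29.8 ± 4.41), Ago4 (26.7 ± 14.0), Ago3 (25.6 ± 6.46) and Ago1 (14.2 ± 7.28, each SD, n = 5). Only Tnrc6b and Tnrc6a were neighbours in this order whose libraries did not overlap. With the ASO, Ago2 (139 ± 23.1) and Dicer1 (98.5 ± 18.1) led and overlapped each other. All ASO libraries of Dicer1 were above those of the next gene, Tnrc6b (54.8 ± 10.2). Tnrc6b, Tnrc6c (54.2 ± 8.22), Dgcr8 (51.3 ± 7.49), Tnrc6a (47.5 ± 7.35), Ago3 (36.3 ± 9.44) and Ago4 (35.2 ± 5.24) each overlapped the next, and Ago1 (3.85 ± 1.65) was apart from Ago4. In CTRL, the level of Ago2 was above that of 80.1% of the 12751 genes with a count and at least 100 such bases, and that of Dicer1 was above that of 70.3%.

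The make-up of each family followed from these levels. Ago2 held 59.4% ± 6.92 of the summed Argonaute level in CTRL and 64.7% ± 5.44 with the ASO. Ago3 held 15.8% ± 4.28 and 17.0% ± 4.27, Ago4 15.7% ± 6.67 and 16.6% ± 3.31, and Ago1 9.12% ± 5.25 and 1.78% ± 0.68, in CTRL and under the ASO (SD, n = 5 a group). All 4 shares overlapped between the groups, and that of Ago1 does not include its main end. The share of Tnrc6a in the summed Tnrc6 level was between 20.3% and 25.9% in CTRL and between 26.7% and 36.5% with the ASO, without overlap. Tnrc6b held 34.9% ± 4.23 and 34.9% ± 4.68, and Tnrc6c 42.3% ± 3.49 and 34.9% ± 6.70. The order within the Tnrc6 family depended on the length scale. In CPM, without division by length, Tnrc6a held 37.8% ± 3.51 in CTRL and 46.3% ± 3.81 under the ASO, again without overlap, Tnrc6b 38.6% ± 4.47 and 35.6% ± 3.87, and Tnrc6c 23.6% ± 2.48 and 18.1% ± 4.30, so that Tnrc6c went from the highest mean share in CTRL to the lowest. In the Argonaute family the CPM scale took Ago3 to 20.7% ± 5.19 and 22.1% ± 5.25 and left Ago2 the highest.

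Tnrc6a is counted on 3 segments, and these moved in opposite directions. The most distal segment (chr7:122794020-122794519, plus strand, GRCm39) was at 17.0, 14.9, 14.3, 14.8 and 12.4 CPM in CTRL replicates 1 to 5 and at 19.8, 26.3, 24.95, 25.5 and 26.4 CPM in ASO replicates 1 to 5. All ASO libraries were above all CTRL libraries, with a log2 fold change of 0.74 (SE 0.18, adjusted p = 0.0052 from edgeR's test over 10652 segments). A segment 1318 bp upstream (chr7:122792702-122793201) went from 29.1 ± 2.74 to 43.9 ± 9.34 CPM (SD, n = 5 each), also without overlap, with a log2 fold change of 0.59 (SE 0.17, edgeR adjusted p = 0.015).

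The third segment of Tnrc6a, 17604 bp upstream (chr7:122776416-122776915), fell. It is assigned to a transcript annotated for nonsense-mediated decay. Of its bases, 97.8% lie in no annotated exon of the gene, those of that transcript included. It was at 5.66, 4.66, 5.44, 8.85 and 11.2 CPM in CTRL replicates 1 to 5 and at 1.93, 1.70, 2.54, 3.76 and 3.77 CPM in ASO replicates 1 to 5, a log2 fold change of −1.35 (SE 0.35, edgeR adjusted p = 0.0087). It held 13.9% ± 4.70 of the counts of Tnrc6a in CTRL and 3.86% ± 1.32 with the ASO (SD over 5 libraries), without overlap. The 3 segments differed in their change by limma's diffSplice (adjusted p = 7.4e-05), a test that called 64.8% of the 2272 genes with at least 2 tested segments.

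**Figure D2:**
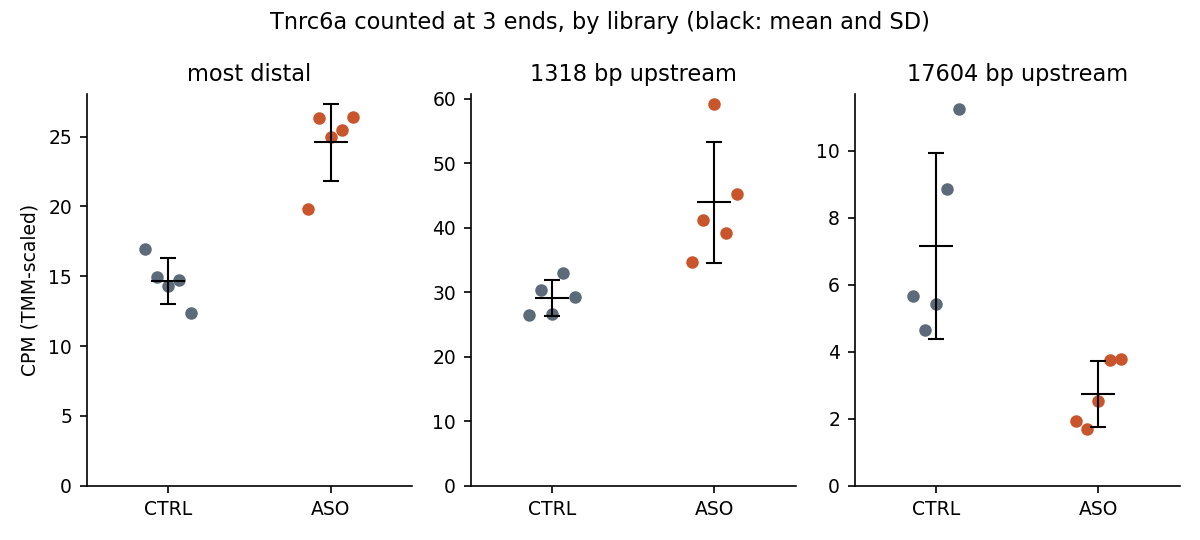
CPM of the 3 counted segments of Tnrc6a (vertical axes from 0) in the 5 CTRL and 5 ASO libraries, by distance in bp from the most distal segment. Points are libraries and black marks are the mean and SD. The 2 segments nearest the end are higher with the ASO and the one 17604 bp upstream is lower, each without overlap.

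Tnrc6b, with 2 tested segments, showed no call for either. Its most distal segment (chr15:80824787-80825286, plus strand, GRCm39) had a log2 fold change of 0.16 (SE 0.23, edgeR adjusted p = 0.62). The one 11077 bp upstream (chr15:80813710-80814209) had −0.45 (SE 0.42, edgeR adjusted p = 0.41), and diffSplice gave an adjusted p of 0.42 for their difference. The upstream segment held 43.8% of the counts of Tnrc6b in CTRL replicate 5 and between 6.98% and 21.4% in the other 4 CTRL libraries, against 9.20% to 17.7% with the ASO. Ago3 had 97.2% of its counts 1028 bp upstream (chr4:126226525-126227024, minus strand), and that segment had a log2 fold change of 0.49 (SE 0.23, edgeR adjusted p = 0.11). The segments of Ago2 (chr15:72967693-72968192, minus strand) and Ago4 (chr4:126383334-126383833, minus strand) are the last 500 bp of their genes.

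Segments at each place had a background of their own. Of the 5060 tested most distal segments of all genes, 21.5% were higher and 4.74% lower, and their median log2 fold change was 0.26. The 6 most distal segments of the members that were tested, those of Ago2, Ago4, Dgcr8, Dicer1, Tnrc6a and Tnrc6b, had log2 fold changes from 0.16 to 0.88, and 4 of them were higher. Of the 5 tested segments at least 1000 bp upstream, in Ago3, Tnrc6a, Tnrc6b and Tnrc6c, 1 was higher and 1 was lower, both in Tnrc6a. Over all genes, 66.8% of 930 mostly intronic segments were lower, and the segment of Tnrc6a that fell is one of them.

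**Figure D3:**
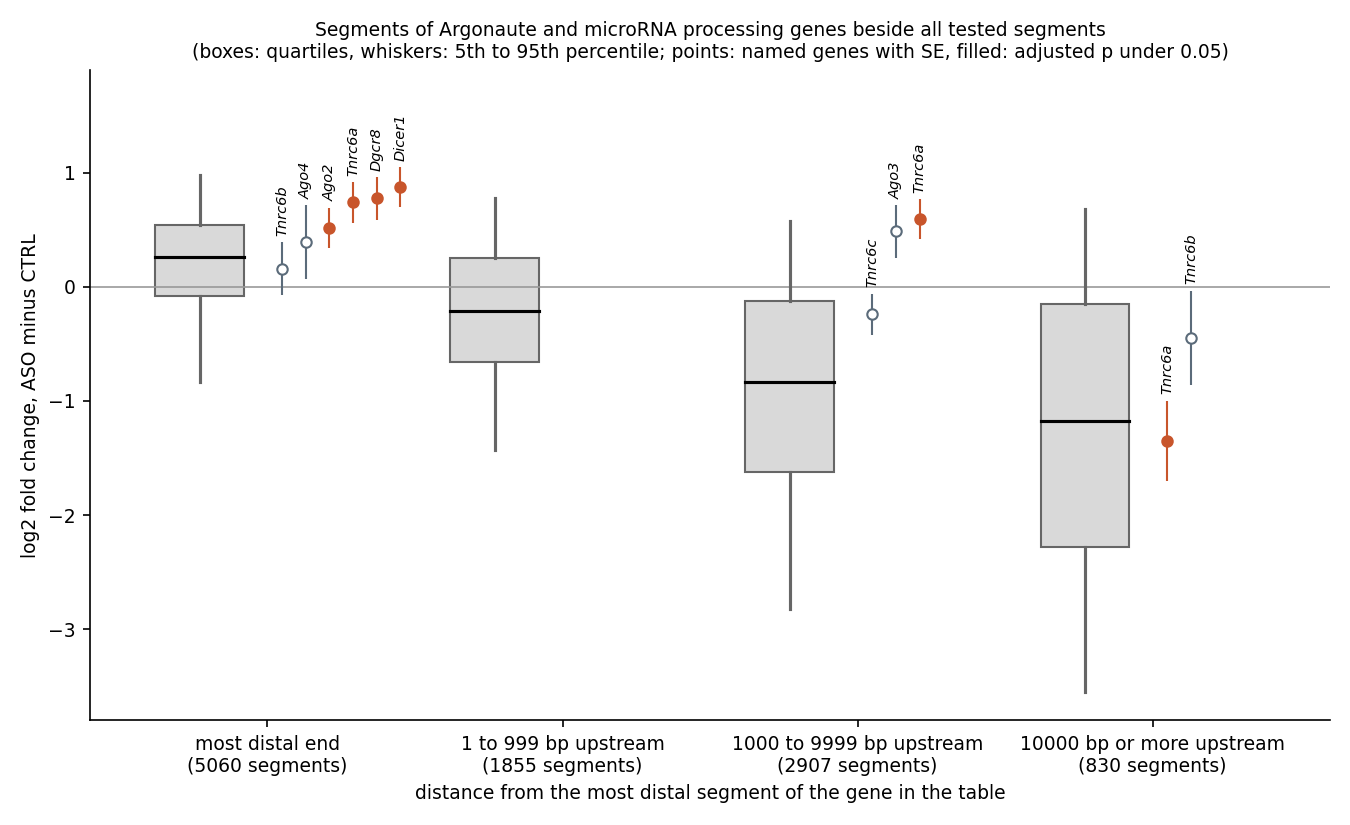
Log2 fold change (ASO minus CTRL) of the tested segments of the members (points with SE, filled where the adjusted p is under 0.05) beside all tested segments of the table (boxes: quartiles, whiskers: 5th to 95th percentile), by distance from the most distal segment of the gene. The median of all segments goes from 0.26 at the most distal end to −1.18 at 10000 bp or more upstream.

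A fit on the most distal segment of each gene alone, with its own scaling, gave lower values for the same counts. Ago2, Ago4, Dgcr8 and Dicer1 each have 1 counted segment, so the scaling alone changed their log2 fold changes, by between −0.25 and −0.24. In that fit Dicer1 had a log2 fold change of 0.62 and was past the threshold, whereas Dgcr8 (0.52, adjusted p = 0.050), Tnrc6a (0.49, adjusted p = 0.057) and Ago2 (0.28, adjusted p = 0.27, each from edgeR) were not. That fit called 5.72% of its 5486 genes higher. In a fit on upstream segments alone, Ago3 (1.00, adjusted p = 0.0040) and Tnrc6a (0.92, adjusted p = 0.0013, both from edgeR) were higher, where 23.3% of 3858 genes were. That fit also had its own scaling, and the same 619 counts of Tnrc6c gave −0.23 in the gene fit and 0.29 in it. Under the scaling of the gene fit, the upstream segment of Ago3 had 0.49 (edgeR adjusted p = 0.11). Values below on the most distal segment, the segment of most counts or upstream segments alone come from fits with their own scaling.

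**Figure D4:**
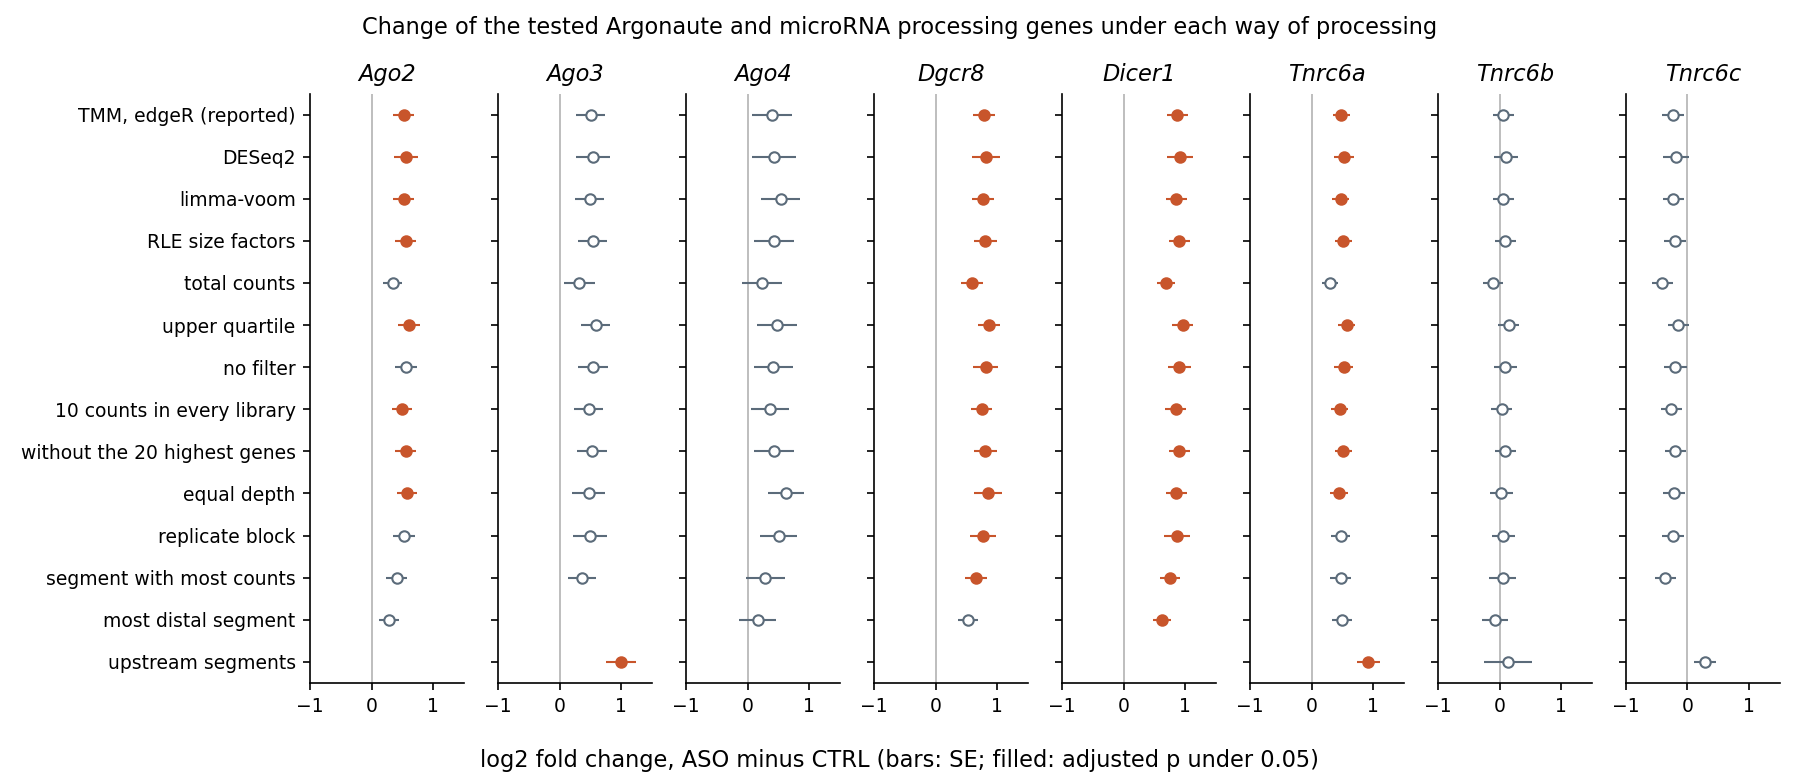
Log2 fold change with SE (horizontal axis, ASO minus CTRL) of the 8 tested genes under the reported fit and 13 other ways of processing. Filled points have an adjusted p under 0.05, and a gene has no point where a setting left too few counts, or none, to test. Dicer1 is filled in every row that holds it, and Tnrc6b is on both sides of 0.

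The match of a target to the seed of miR-22-3p is GGCAGCT, and the longest 3′UTR that the annotation gives for a gene was searched for it (GENCODE M39). Of the 10 genes, 5 held it, with 6 matches in 61899 bases, which is 0.0969 matches per kb against 0.105 over all 20988 genes with a 3′UTR. Over all genes, 16.7% held a match, but long 3′UTRs hold more. Among genes within 20% of the same 3′UTR length, the share was 30.3% for Dicer1, 21.8% for Tnrc6a, 58.1% for Tnrc6b, 33.6% for Ago1 and 29.3% for Ago4. Ago2, Ago3, Dgcr8, Drosha and Tnrc6c held none. The 6 matches are shown with 8 bases on each side, in capitals, as read from GRCm39 on the strand of the gene.

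Dicer1, chr12:104657146-104657152, minus strand: aatggggtGGCAGCTcactaggg
Tnrc6a, chr7:122792588-122792594, plus strand: aatatgggGGCAGCTgttccagt
Tnrc6b, chr15:80821001-80821007, plus strand: gccccaggGGCAGCTgttggatt
Tnrc6b, chr15:80824388-80824394, plus strand: ttttaagaGGCAGCTttccaact
Ago1, chr4:126331115-126331121, minus strand: tgggaagaGGCAGCTcactggag
Ago4, chr4:126384785-126384791, minus strand: cggtggctGGCAGCTgacagaag

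None of these matches is followed by an A and none lies in a counted segment, where 4.97% of all distinct 500 bp segments hold one. Of the 4 genes that rose, Dicer1 and Tnrc6a held a match and Dgcr8 and Ago2 did not. Tnrc6b, with 2 matches, was not past the threshold. A match is a run of letters and not evidence of binding.

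Tnrc6a had the most counts of the 10 genes, and the genes whose pattern over the 10 libraries was most like it were Tubgcp2, Ubfd1 and Smg5. The root mean square difference of their log2(CPM + 1), centred on the mean of each gene, was 0.0962, 0.106 and 0.108, against a median of 0.469 over 7812 genes. The log2 fold changes of Tubgcp2, Ubfd1 and Smg5 were 0.55, 0.34 and 0.61 (edgeR adjusted p = 0.013, 0.080 and 0.0029).

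The proteins that work with the members were followed through 84 further genes in 7 lists, of which 12 had 0 counts, 16 had too few and 56 were tested. Of the 56, 9 rose and 9 fell, together 32.1% against 29.2% over all genes, and their median log2 fold change was 0.11. The counts of each list below stand against 11.8% higher and 17.4% lower over all genes tested. The 12 genes with 0 counts include 10 with fewer than 10 bases that no other segment covers.

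The list of export, dicing partners and loading chaperones had 4 of 9 tested genes higher and none lower. Xpo5, which exports hairpin precursors from the nucleus, went from 23.8 ± 3.32 to 32.2 ± 2.31 CPM (SD, n = 5 a group), with a log2 fold change of 0.43 (SE 0.15, edgeR adjusted p = 0.045). The other 3, Ptges3, Stip1 and Fkbp4, encode co-chaperones of HSP90 and had log2 fold changes of 0.46, 0.58 and 0.52 (edgeR adjusted p = 0.033, 0.025 and 0.023). The Dicer partners Tarbp2 (−0.28, adjusted p = 0.18) and Prkra (−0.35, adjusted p = 0.38) were not past the threshold, nor was Hsp90aa1 (0.65, adjusted p = 0.069, each from edgeR). Xpo5 was past the threshold in 7 of 23 fits, and its call was held without CTRL replicate 3 or ASO replicate 4 and lost without any other library. The calls of the 3 co-chaperone genes were lost under total counts (0.28, 0.40 and 0.34 for Ptges3, Stip1 and Fkbp4) and with the most distal segment (0.65, 0.33 and 0.27) or the segment of most counts alone (0.22, 0.46 and 0.40), and those of Ptges3 (0.46) and Fkbp4 (0.53) with the replicate number as a block. All 3 calls were also lost without CTRL replicate 4 (0.41, 0.52 and 0.52), those of Ptges3 and Stip1 without CTRL replicate 3 (0.39 and 0.51), and that of Ptges3 without ASO replicate 2 (0.44) or 3 (0.42).

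Of the 15 tested nuclear cofactors, 1 rose and 4 fell. Srsf3, a splicing factor that also aids the recognition of primary transcripts, had a log2 fold change of 0.52 (edgeR adjusted p = 0.032). The call of Srsf3 held in 16 of 24 fits. It was lost under total counts (0.33), on the most distal segment (0.20, adjusted p = 0.75) and on the segment of most counts (0.18, adjusted p = 0.53), whereas upstream segments alone gave 1.06 (adjusted p = 5.8e-04, each from edgeR). It was also lost without CTRL replicate 2 (0.43), 3 (0.50) or 5 (0.50) and without ASO replicate 3 (0.47) or 5 (0.52). The RNA-binding protein genes Tardbp (−0.86, adjusted p = 0.0036) and Safb (−0.77, adjusted p = 0.0070) fell without overlap between the groups, and the helicase gene Ddx17 (−0.87, adjusted p = 0.041, each from edgeR) fell with overlap. Ddx17 was past the threshold in 13 of 24 fits. Its call was lost with voom (−0.81), upper quartile scaling (−0.77), no filter (−0.81), the replicate number as a block (−0.81) and upstream segments alone (−0.79), and when CTRL replicate 4 (−0.81) or 5 (−0.60) was left out. Leaving out ASO replicate 2 (−0.89), 3 (−0.77), 4 (−0.69) or 5 (−0.88) also ended it. On upstream segments alone Tardbp had −0.34 (adjusted p = 0.082) and Safb −0.26 (adjusted p = 0.20, both from edgeR), and both were past the threshold in their other 22 fits. The segments with the most counts in these 3 genes lie between 3617 and 5653 bp upstream of the most distal segment.

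Of 12 tested deadenylation genes, Pabpc1, the cytoplasmic poly(A)-binding protein, rose from 46.1 ± 9.57 to 85.9 ± 19.97 CPM (SD, n = 5 a group), with a log2 fold change of 0.90 (SE 0.19, edgeR adjusted p = 0.0047). Cnot2, a subunit of the CCR4-NOT deadenylase that GW182 proteins recruit, fell from 68.9 ± 9.35 to 33.7 ± 4.18 CPM, a log2 fold change of −1.03 (SE 0.15, edgeR adjusted p = 4.7e-04). The other 10 genes of this list were not past the threshold, Cnot1 among them (−0.18, edgeR adjusted p = 0.26). Cnot2 was past the threshold in each of its 23 fits, and Pabpc1 in 22 of 23.

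Of 7 tested genes of decapping and decay, the cap-binding Eif4e2 rose (0.43, adjusted p = 0.028) and Lsm14a, a protein of cytoplasmic P-bodies, fell (−0.68, adjusted p = 0.014, both from edgeR). The call of Eif4e2 was lost under total counts (0.24), with the block (0.43), on the segment of most counts (0.35), and without CTRL replicate 1 (0.42), 2 (0.39) or 4 (0.41), and upstream segments gave 1.00. Lsm14a had −0.18 on upstream segments (edgeR adjusted p = 0.39), the only fit that lost its call. Of 8 tested genes of microRNA tailing and turnover, Tsnax, a subunit of the translin nuclease complex, rose (0.56, adjusted p = 0.0086). The uridylyltransferase Tut7 (−0.72, adjusted p = 0.0060) and Zswim8, a ubiquitin ligase receptor that acts on Argonautes in microRNA decay directed by targets, fell (−1.85, adjusted p = 0.011, each from edgeR). Tut7 was not past the threshold on the segment of most counts (−0.22, adjusted p = 0.36) or on upstream segments (−0.27, adjusted p = 0.14), and Tsnax was not on the most distal segment (0.31, adjusted p = 0.11, each from edgeR). The segment of Zswim8 with the most counts lies 11311 bp upstream, with 52.2% of its bases outside every annotated exon of the gene. Zswim8 had 169 counts in all, and its groups overlapped (4.66 to 23.6 CPM in CTRL and 2.41 to 6.34 CPM with the ASO). Of 4 tested other partners, Fxr1, a relative of FMRP with known roles in muscle, fell from 407 ± 95.8 to 207 ± 58.4 CPM (log2 fold change −0.98, SE 0.22, edgeR adjusted p = 0.0057). Its segment with the most counts lies 23785 bp upstream. The log2 fold change of Fxr1 in the fit on most distal segments was −0.06 (edgeR adjusted p = 0.91), whereas it was −1.23 on upstream segments (edgeR adjusted p = 1.9e-04) and −3.11 on the segment of most counts (edgeR adjusted p = 1.4e-04). Of the Piwi genes, known from the germline, Piwil2 was the one tested, and it had a log2 fold change of 1.13 (edgeR adjusted p = 0.033) with 100 counts in all. Piwil2 was past the threshold in 9 of 17 fits, and its call was lost without CTRL replicate 1 (1.00), 3 (0.90) or 4 (1.13). It had too few counts to be tested when ASO replicate 2, 3, 4 or 5 was left out.

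The calls were also counted by the place of the segment with the most counts in each gene. Of the 37 pathway genes with this segment within 1000 bp of the most distal one, 8 rose and 2 fell. Of the 19 with this segment further upstream, 1 rose and 7 fell. Over all genes, 14% rose and 10.6% fell of 5932 of the first kind, and 4.89% rose and 39% fell of 1881 of the second kind. Among the members, 3 of 5 of the first kind (Ago2, Dgcr8 and Dicer1) and 1 of 3 of the second kind (Tnrc6a) rose.

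**Figure D5:**
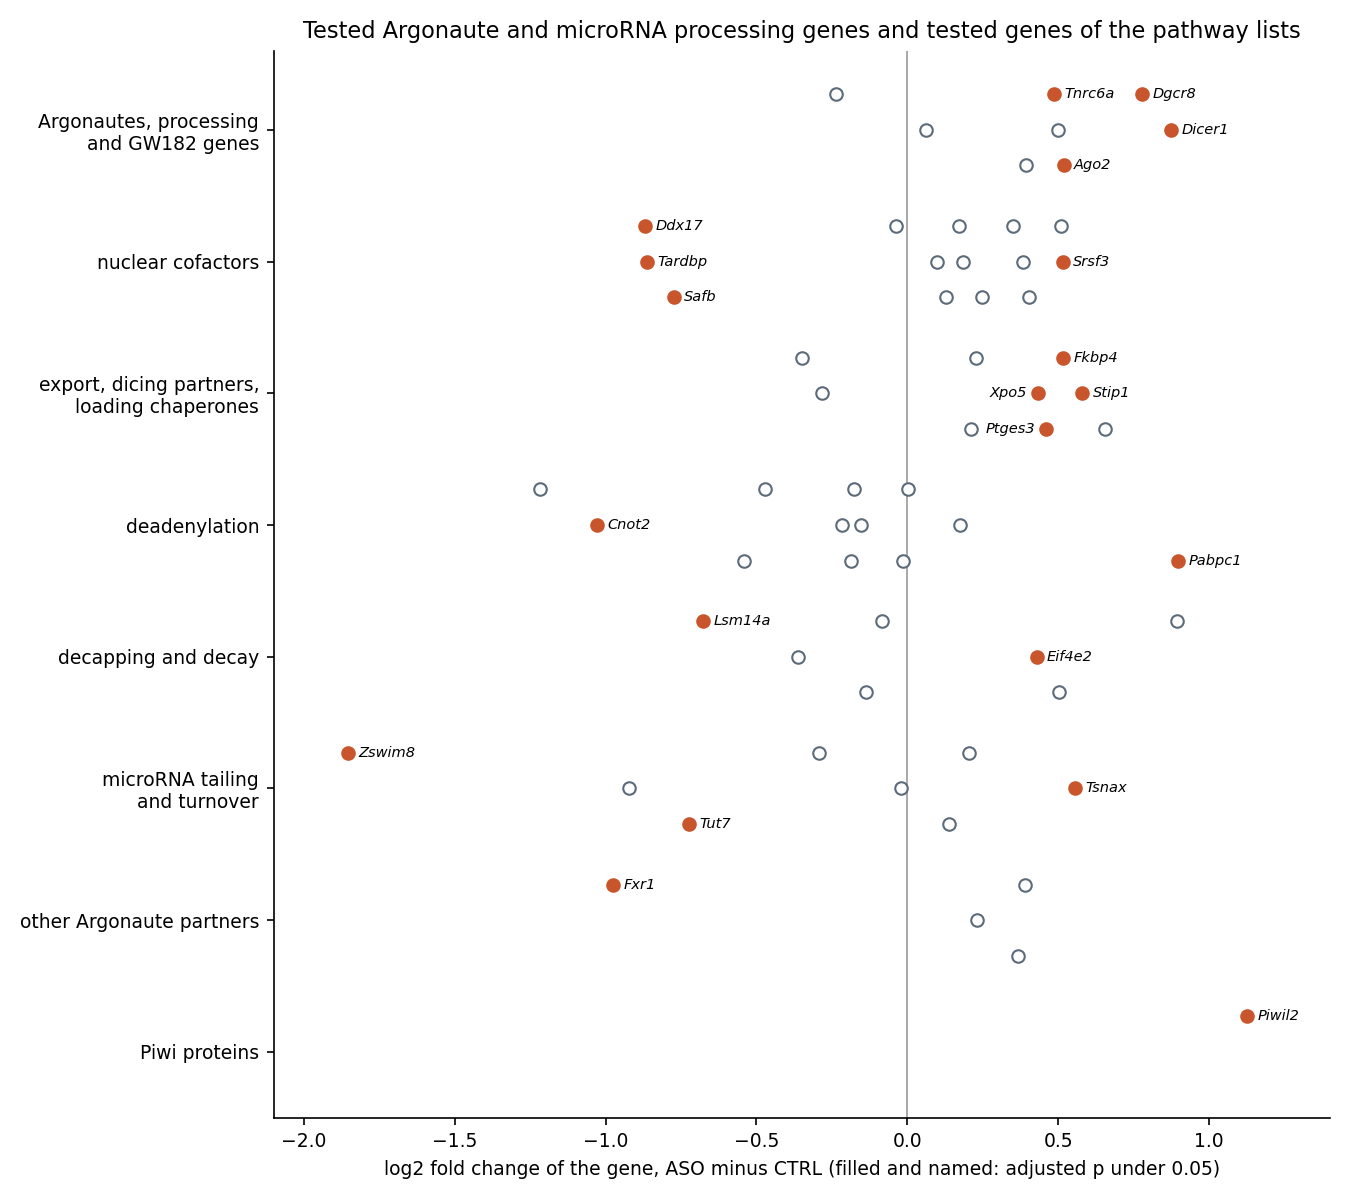
Log2 fold change (horizontal axis, ASO minus CTRL) of each tested member and of each tested gene of the 7 pathway lists (rows). Each point is a gene (1 nuclear cofactor is not drawn), and filled points with names have an adjusted p under 0.05. The members have 4 filled points right of 0 and none left of it, and the drawn genes of the lists have 9 right and 8 left of it.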

How the data were processed

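GAS RNA of 5 ASO and 5 CTRL mice was sequenced by the authors as paired ends from a stranded, poly(A)-selected library. Their reads were trimmed (fastp), mapped by STAR to the GRCm39 genome and assigned as pairs by featureCounts with Gencode M25, keeping no more than the final 500 bp of each 3′UTR. The deposited values are raw counts on 52423 such segments, not normalized and with replicates kept apart. Columns of 4 other libraries were not used.

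Here, segments were matched by transcript to GENCODE M39 on GRCm39 (52361 found, 62 not, with 0.0197% of the counts) and summed per gene. Coordinates are 1-based on GRCm39. Segments on the same strand that overlap lose shared reads, so unique bases were counted per strand. The fits, across all genes, used edgeR 4.0.16 in R 4.3.3 (TMM, filterByExpr with a minimum count of 10, quasi-likelihood test, Benjamini-Hochberg adjustment). DESeq2 1.42.0, the tool of the authors, and voom in limma 3.58.1 were alternatives, and diffSplice in limma tested segments within a gene. Single genes were also tested by a two-sided exact permutation test over 252 labellings of log2(CPM + 1). Other alternatives changed the scaling, the filter, the depth, the segments used and the libraries used, or added the replicate number as a block. The edgeR, voom and DESeq2 gene fits, the edgeR segment fit and diffSplice were run on simulated counts with known changes. The other procedures were not run on them. Totals of 1606909 to 2632560 counts per library limit the precision of genes with few counts. Tables were made with Python 3.11.15, pandas 2.3.3 and matplotlib 3.10.9.

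The members and lists were chosen with earlier results of these data known, so counts over them are descriptions. Named are all members, up to 4 genes in each direction of each list by adjusted p, and the 3 genes most like the member with the most counts. Other list genes with values (Tarbp2, Prkra, Hsp90aa1, Cnot1 and the markers Mrc1, Cdh15 and Pax7) were chosen after their values were seen. Of the nuclear cofactors, 1 that fell is counted but is otherwise not reported here.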

Additional observations from a re-analysis of the deposited data

Results flagged for a closer look

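Ago1 in ASO replicate 3 stood apart from the other ASO libraries, with 3.38 CPM against 1.41 to 1.70 CPM in the other 4. Its gap to the nearest library was 0.855 of the range of the group, above Dixon's 95% critical value of 0.71 for 5 samples. It was the only such library in 18 groups (9 genes in 2 treatments), where chance marks about 1 group in 20. The value rests on at most 8 counts in an ASO library, and the log2 fold change of Ago1 without that library was −2.09 (edgeR adjusted p = 0.012).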

How the results depend on the processing

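Of the 10 members, 4 rose and none fell in the reported fit. The number that rose was 2 under scaling by total counts, with the replicate number as a block, with the segment of most counts alone and with upstream segments alone, 1 with the most distal segment alone, and 3 or 4 when 1 library was left out. The number that fell was 1 (Ago1) with DESeq2 and without the filter on low counts, and 0 or 1 when 1 library was left out. Of the pathway genes, 9 rose and 9 fell. With total counts 2 rose and 16 fell, with upper quartile scaling 15 rose, with the replicate number as a block 5 rose, with the segment of most counts 4 rose, with upstream segments 14 rose, and with the most distal segment 1 rose and 2 fell. Without 1 library, 3 to 10 rose and 7 to 12 fell, with the lowest count of 3 without CTRL replicate 4, and with 5 without CTRL replicate 3 or ASO replicate 3. The fits on some segments alone had fewer counts and their own scaling, and otherwise the cause was not tested.

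Tnrc6b changed sign with total counts (−0.11), with the most distal segment (−0.075), and between −0.023 (without ASO replicate 2) and 0.17 when 1 library was left out (−0.0039 without CTRL replicate 3), and Tnrc6c with upstream segments (0.29), none of them past the threshold in either direction. Of Tnrc6c, the fit on upstream segments left out only a segment with 0 counts, so the scaling alone took it from −0.23 to 0.29. In the same fit Tubgcp2 had −2.92 and Smg5 −2.30, both past the threshold. Total counts took the median over all genes tested from −0.03 to −0.21 (log2).

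Same-numbered ASO and CTRL libraries did not deviate together (correlations from −0.42 to 0.15, no library closest to its own number). A pairing by number was thus not seen, but 5 libraries a group cannot exclude one. With the replicate number as a block, Dicer1 and Dgcr8 stayed past the threshold and Ago2 and Tnrc6a had an adjusted p of 0.058 from edgeR. The segments of Tnrc6a differed in all 13 fits, with adjusted p from 4.7e-06 to 8.7e-04. The adjusted p of Tnrc6b was between 0.15 and 0.99 in the same fits. Genes with under 10 counts in a library, Ago1 above all, are the least precise here.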
